A study of Danio rerio with 20 samples.

Results

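Interferon-stimulated genes are the genes that cells switch on when an interferon, a secreted alarm protein against viruses, binds its receptor. In 20 brain samples of male zebrafish, a set of 42 genes was followed among the 32105 genes of the deposited count table. Beside such genes, the set holds parts of the pathway, such as the receptor gene crfb1 and the kinase gene JAK1. A list of 30 zebrafish gene symbols was searched, and every gene whose symbol starts with ifi44 or ifit was added. The search found 50 gene identifiers, 26 for listed symbols and 24 by prefix, and a gene was kept if it had at least 10 counts in at least 5 libraries. That left 24 listed genes and 18 prefix genes. The listed symbols irf2, ddx58, crfb5 and parp14 matched no identifier in the symbol table used here. The symbol socs1a was matched as SOCS1, a symbol that does not name the copy. It was not socs1b, which had an identifier of its own. The genes irf1a, ifngr1, ifit14, ifit15, ifi44e, ifi44a5, ifi44a7 and ifi44f5 matched but had too few counts. Nearest to the limit on the inside were ifit9 and ifi44b, with 10 counts in 7 libraries each, and on the outside ifi44f5 and ifit15, with 10 counts in 4 and 3 libraries.

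All samples were whole-tissue RNA from the brain of male fish with the strain label AB JxTu. There were 4 groups of 5 libraries: fish of 1 year or of 3 years, with no perturbation or after swimming in a swim tunnel, a chamber with a water current. The labels name no transgene or mutation, and say nothing of how long the fish swam or when they were sampled. The design sets exercised against unexercised fish at each age, old against young fish with and without exercise, and the 2 exercise effects against each other. Libraries held 23390453 to 34587938 counts. Nothing in the labels says whether each library came from its own animal; the spread behind the p-values is therefore that of these samples, which may be technical, and the 2 ages are different fish. Levels are given as CPM, counts scaled to a common library total, and are compared between genes only as RPKM, which also divides by gene length. A gene was called when its adjusted p in edgeR's quasi-likelihood test was below 0.05 after Benjamini-Hochberg adjustment over all 21148 genes tested. All 42 genes passed that test's own filter on low counts, and 29 of them had at least 10 counts in all 20 libraries.

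An interferon receptor signals through JAK kinases, which phosphorylate transcription factors of the STAT family. These join IRF9 and switch on antiviral effectors such as the Mx GTPases, isg15 and viperin (RSAD2), while SOCS1 and usp18 damp the signal. Sensors of viral RNA inside the cell (IFIH1, tlr3) act upstream, by inducing interferon itself. DHX58 regulates RNA sensing, and STING1 relays the detection of DNA. Both are counted among the sensors here. In the brain, microglia and infiltrating lymphocytes are known as producers of and responders to interferon, and a raised interferon signature is a known feature of aged brain in mammals.

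Levels per gene length spanned a wide range. The gene trim25 was at 23.5 ± 4.24 RPKM (SD over 20 libraries), irf1b at 17.2 ± 10.8 and irf9 at 10.3 ± 5.00. JAK1 at 9.74 ± 1.77, RSAD2 at 9.70 ± 2.72 and isg15 at 9.02 ± 5.63 RPKM followed, closer to each other than their spread. Highest by role were JAK1 among receptors and kinase, irf1b among interferon regulatory factors, trim25 among effectors, DHX58 among sensors (1.84 ± 1.45 RPKM) and SOCS1 among inhibitors (5.10 ± 4.86 RPKM). The lowest were ifit9 at 0.176 ± 0.264 and ifit8 at 0.165 ± 0.0944 RPKM. Genes differed as much in how they varied. The coefficient of variation over the 20 libraries was 18.02% for trim25 and 18.2% for JAK1, and it was 180% for mxc, 192% for ifi44a8 and 215% for ifi44a6.

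A few libraries carried most of the highest values, in every group. The library 3-year exercised replicate 1 was the highest of its group in 34 of the 42 genes and the highest of all 20 libraries in 15. In the 3-year unexercised group, replicate 2 was highest in 22 genes and replicate 3 in 11, and they were the highest of all 20 in 9 and 8. At 1 year, unexercised replicate 1 was highest of its group in 32 genes and exercised replicate 5 in 21. Some of these libraries also stood apart in markers of other tissues. The summed CPM of 10 epidermis markers was 2765 in 1-year unexercised replicate 1, with a median of 461 in its group, and the sum of 11 muscle markers was 4397 there, with a group median of 35.7. The muscle sum was 465 in 3-year exercised replicate 1, with a group median of 32.1. It was also high, at 283, in replicate 4, which was the highest of that group in 3 of the 42 genes. The 3-year unexercised fish had a muscle median of 175 and up to 1611 for epidermis, in replicate 3. Replicate 2 of those fish was at 32.3 for muscle and 419 for epidermis. Several counts and medians are also given without 1-year unexercised replicate 1 and 3-year exercised replicate 1. Values of most single genes and of the cell markers are given with all libraries only. The markers of the labelled tissue were high throughout, with a sum of 6592 to 9588 CPM over 10 neuronal genes.

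**Figure D1:**
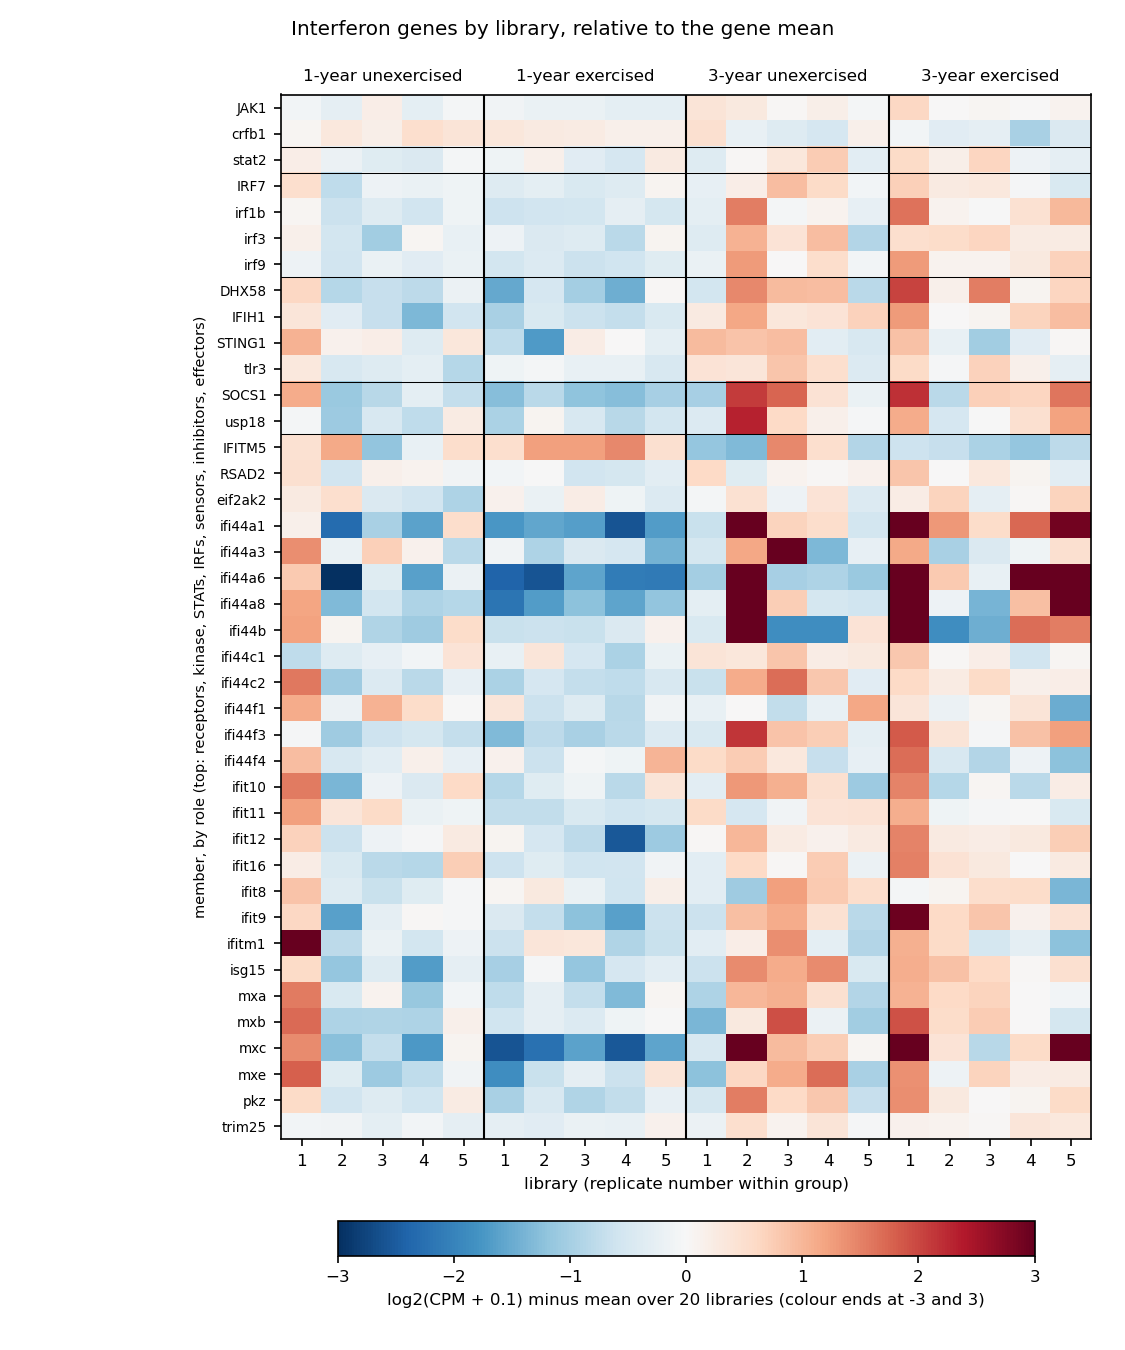
Each row is 1 of 40 of the genes, ordered by role, and each column 1 of the 20 libraries in 4 groups; colour is log2(CPM + 0.1) minus the gene's mean over the 20 libraries, ending at -3 and 3. Of 15 cells past the red end of the scale, 3-year unexercised replicate 2 holds 4, 3-year exercised replicate 1 holds 5 and replicate 5 of that group 3, and the others are ifitm1 in 1-year unexercised replicate 1, ifi44a3 in 3-year unexercised replicate 3 and ifi44a6 in 3-year exercised replicate 4.

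Most of the 42 genes were higher at 3 years than at 1 year, and the calls came from the exercised fish and from the average over exercise. In exercised fish 17 of 42 genes were called, or 40.5%, against 10.6% of all genes tested. Of these, 15 rose with age, against 6.77% of all genes called higher, and 2 fell, against 3.88% called lower. The median log2 fold change of the 42 genes was 1.08, against 0.01 over all genes, and 40 of 42 were positive. With the age difference averaged over exercise, 21 of 42 genes were called, against 16.9% of all genes. There 19 rose, against 9.65% of all genes, and 2 fell, against 7.3%. The median was 0.72, against 0.00 over all genes. The 2 comparisons share the exercised fish, and 16 genes were called in both. Of the 42 genes, 36 would have been kept on the 1-year libraries alone, and of these 14 were called in exercised fish and 18 on average. The other 6 (ifi44a6, ifi44a8, ifi44b, ifi44c1, ifit8, ifit9) were kept through the 3-year libraries as well, which favours genes that are higher there.

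In unexercised fish no gene of the 42 passed edgeR's test, where 0.586% of all genes did. The log2 fold change was positive in 37 of 42, with a median of 0.58 against 0.00 over all genes, and 14 genes had an unadjusted p below 0.05 (33.3%, against 14.1% of all genes). That median was 0.25 without 3-year unexercised replicate 2 and 0.36 without 3-year unexercised replicate 3. It was 0.85 without 1-year unexercised replicate 1, where edgeR called 1 gene, IFIH1, and 0.845% of all genes. DESeq2 called 2 of them, IFIH1 and ifi44f3, where it called 2.6% of all genes, and limma on recomputed RPKM called 0. Whether the age difference itself depended on exercise is tested by the difference between the exercise effects, given further on, where no gene of the 42 was called. The age calls in exercised fish are therefore not shown to be particular to them.

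The groups of libraries separated in the exercised fish. There, 19 genes had all 5 of the 3-year libraries above all 5 of the 1-year libraries and 2 (crfb1, IFITM5) had them all below, so 21 of 42 did not overlap, against 11.3% of all genes. In unexercised fish none of the 42 separated, against 2.6% of all genes. The count of 17 in exercised fish moved with single libraries. It was 6 without 3-year exercised replicate 1 (4.22% of all genes) and 6 without 1-year exercised replicate 3 (5.53%). It was 9 without 1-year exercised replicate 4 (5.98%) and 10 without 1-year exercised replicate 1 (7.17%). Without both 1-year unexercised replicate 1 and 3-year exercised replicate 1 it was 8 (6.09%). The share over all genes thus fell in these fits too. IFIH1, ifi44a1, ifi44a6, ifi44f3 and mxc were called in all 20 fits that left out 1 library. Of these, ifi44a6 had 10 counts or more in 3 libraries at 1 year and 8 at 3 years, so it was kept mainly through the age at which it is higher. For the average over exercise the count lay between 15 and 26 in the fits that left out 1 library, against 13.6% to 20.1% of all genes. In every one of them 15 genes were called. The count was 22 without the same 2 libraries, against 16.6% of all genes, and then took in IRF7 and ifi44c2. Without 3-year exercised replicate 1, the genes called in exercised fish were IFIH1, crfb1, ifi44a1, ifi44a6, ifi44f3 and mxc. Without the same 2 libraries, SOCS1 and irf9 were called beside these, while irf1b and IFITM5 were not.

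**Figure D2:**
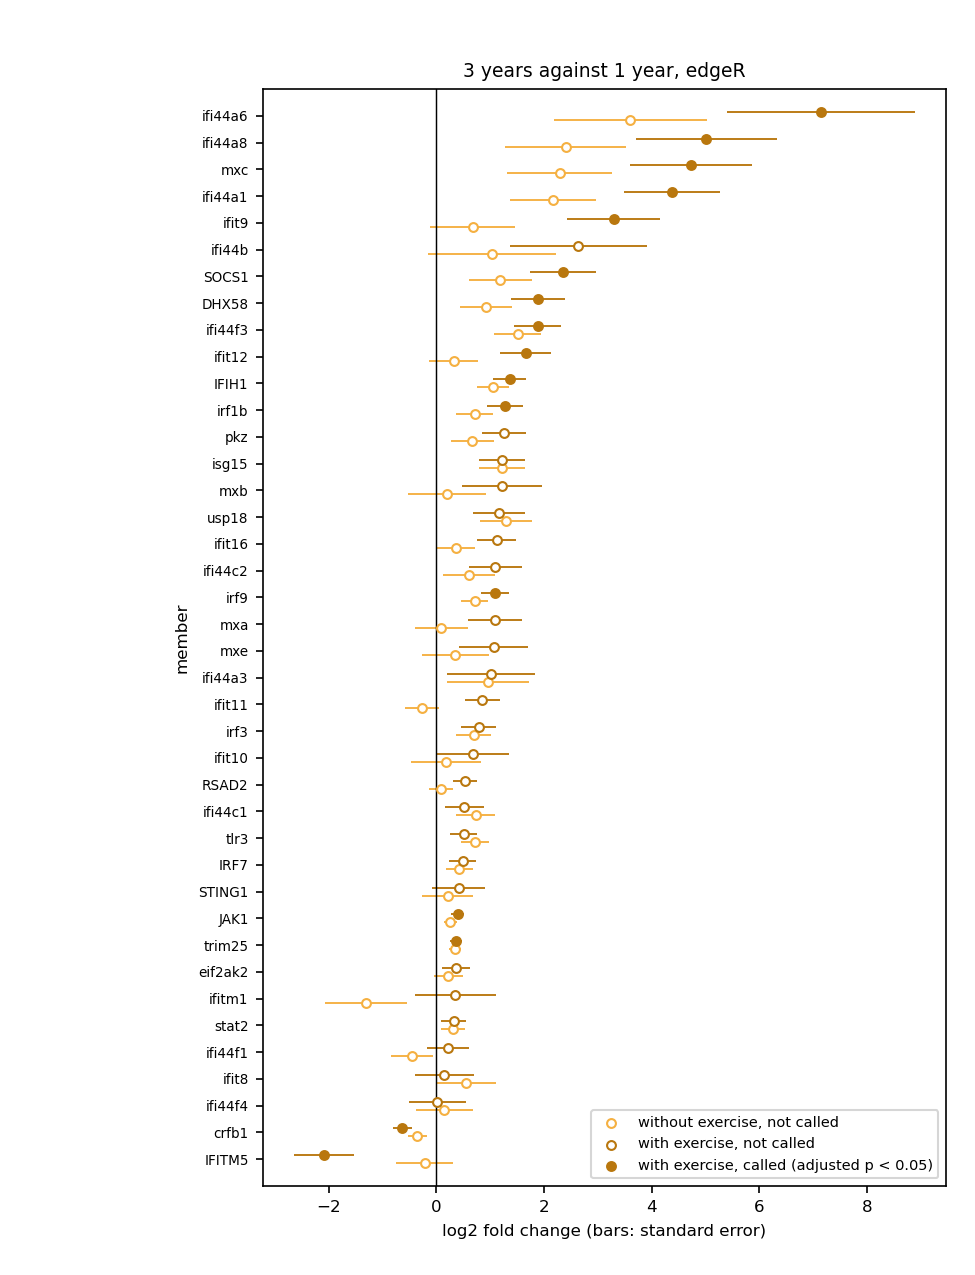
Log2 fold change of 3 years against 1 year (x axis) for 40 of the genes (y axis), light points in unexercised and dark points in exercised fish; bars are standard errors and filled points passed an adjusted p of 0.05. All filled points are in exercised fish, 14 to the right of 0 and crfb1 and IFITM5 to the left, and most light points also lie to the right.

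At the top of the pathway, the receptor chain fell and the kinase rose. The gene crfb1 encodes a chain of the zebrafish receptor for type I interferons. It was at 13.5, 16.1, 14.7, 18.3 and 16.9 CPM in the 5 libraries of 1-year unexercised fish and at 16.5, 15.5, 15.4, 14.4 and 14.51 in those of 1-year exercised fish. At 3 years it was at 18.05, 11.1, 9.84, 9.16 and 14.3 CPM without exercise and at 12.3, 10.2, 10.7, 6.52 and 9.62 with exercise. All exercised 3-year libraries lay below all exercised 1-year libraries, and without exercise the ages overlapped through 3-year replicates 1 and 5. The log2 fold change with age was -0.63 ± 0.17 in exercised fish (log2, SE; adjusted p = 0.0262), and -0.35 ± 0.17 without exercise (adjusted p = 0.368). Averaged over exercise it was -0.49, which was also called. JAK1, the tyrosine kinase that interferon receptors use, was at 60.0, 56.5, 55.7, 52.3 and 52.6 CPM in 1-year exercised fish and at 98.99, 64.6, 67.3, 64.9 and 68.8 CPM in 3-year exercised fish. It did not overlap between ages, and replicate 1 at 3 years was the highest. It rose with age in exercised fish by 0.40 ± 0.12 (log2, SE; adjusted p = 0.0409). In unexercised fish it was at 61.1, 53.4, 74.3, 52.5 and 61.4 CPM at 1 year and 84.0, 78.4, 66.5, 72.2 and 61.8 CPM at 3 years, which overlap, and the change was 0.26 ± 0.12 (adjusted p = 0.328). Without 3-year exercised replicate 1, the adjusted p of JAK1 in exercised fish was 0.134.

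The gene stat2 encodes a transcription factor that carries the type I interferon signal to the nucleus. It was not called in any comparison, and its age difference averaged over exercise was 0.32 ± 0.16 (adjusted p = 0.189).

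Against 9.65% of all genes called higher, 3 of the 4 interferon regulatory factors rose on average over exercise. Of these, irf9, the partner of the STATs, was at 15.6, 11.7, 15.2, 13.7 and 15.01 CPM in 1-year unexercised fish and at 11.8, 13.0, 10.99, 11.4 and 13.3 CPM in 1-year exercised fish. At 3 years irf9 was at 15.2, 42.4, 17.6, 24.9 and 16.4 CPM without and 42.2, 18.7, 18.8, 21.3 and 28.2 CPM with exercise. The highest values were those of replicate 2 without and replicate 1 with exercise, and with exercise every 3-year library lay above every 1-year library. Averaged over exercise, irf9 rose by 0.90 ± 0.18 (log2, SE; adjusted p = 0.00317), a fold of 1.87. The gene irf1b encodes a zebrafish copy of IRF1, a transcription factor that interferons induce. It was at 43.9, 27.1, 32.3, 28.2 and 38.61 CPM in 1-year unexercised fish and at 27.5, 28.2, 28.7, 34.7 and 29.2 CPM in 1-year exercised fish. At 3 years irf1b was at 34.6, 123, 40.4, 45.4 and 35.8 CPM without exercise, where replicate 2 alone stood far above the rest, and at 131, 45.4, 42.1, 57.8 and 83.1 CPM with exercise, where replicates 1 and 5 were highest. The averaged increase was 0.99 ± 0.24 (log2, SE; adjusted p = 0.00896), and with exercise it was 1.28 ± 0.34 (log2, SE; adjusted p = 0.0244). The factor irf3, which is activated by the sensors and induces interferon, rose by 0.74 ± 0.23 (log2, SE; adjusted p = 0.0346) averaged over exercise, a call that held in 8 of 20 fits that left out 1 library. IRF7, which amplifies interferon production, had 0.46 ± 0.18 (adjusted p = 0.086). It was called without 1-year unexercised replicate 1, and also without that library and 3-year exercised replicate 1.

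Sensors of viral RNA rose, and STING1, which relays the detection of DNA, was not called. IFIH1, the sensor of long double-stranded RNA also known as MDA5, had the smallest adjusted p of the 42 genes. It was at 3.47, 2.09, 1.63, 0.989 and 1.75 CPM in 1-year unexercised fish and at 1.31, 1.92, 1.68, 1.58 and 1.93 CPM in 1-year exercised fish. At 3 years it was at 3.22, 6.09, 3.40, 3.59 and 4.39 CPM without and 6.66, 2.70, 2.84, 4.30 and 5.18 CPM with exercise. All but 1 of the 1-year libraries, unexercised replicate 1, lay below all 3-year libraries. The averaged increase was 1.21 ± 0.21 (log2, SE; adjusted p = 0.00149), a fold of 2.31, and it was 1.36 ± 0.30 (log2, SE; adjusted p = 0.0113) with exercise. DHX58, a relative of IFIH1 known as LGP2 that regulates RNA sensing, was at 8.07, 2.85, 3.22, 3.00 and 4.62 CPM in 1-year unexercised fish and 1.74, 3.66, 2.55, 1.82 and 5.41 CPM in 1-year exercised fish. At 3 years it was at 3.55, 14.51, 10.2, 10.1 and 2.94 CPM without and 21.7, 5.80, 15.3, 5.55 and 8.22 CPM with exercise. Without exercise, replicates 1 and 5 at 3 years were within the 1-year range and the other 3 were above it. The averaged increase of DHX58 was 1.41 ± 0.35 (log2, SE; adjusted p = 0.0103). The endosomal receptor tlr3 rose by 0.61 ± 0.18 (log2, SE; adjusted p = 0.0261) averaged over exercise, and STING1 had 0.31 ± 0.34 (adjusted p = 0.577).

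Among the 27 antiviral effectors, 10 rose and 1 fell on average over exercise, against 9.65% and 7.3% of all genes. The largest increases were in mxc and genes of the ifi44a group. The gene mxc encodes an Mx protein, a dynamin-like GTPase. In 1-year unexercised fish mxc was at 6.30, 0.901, 1.34, 0.623 and 2.43 CPM and in 1-year exercised fish at 0.295, 0.402, 0.677, 0.310 and 0.697 CPM. At 3 years mxc was at 1.59, 44.4, 4.502, 3.84 and 2.37 CPM without exercise and at 32.3, 3.07, 1.24, 3.44 and 24.2 CPM with exercise. A single unexercised library and 2 exercised ones were above 20 CPM, and the other 3-year libraries were all below 5 CPM. Averaged over exercise, mxc rose by 3.51 ± 0.74 (log2, SE; adjusted p = 0.00437), and with exercise 4.73 ± 1.13 (log2, SE; adjusted p = 0.0149). The other Mx genes were not called, with averaged log2 fold changes of 0.59 ± 0.35 for mxa, 0.71 ± 0.52 for mxb and 0.71 ± 0.44 for mxe (0.265 to 0.376, adjusted p).

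The ifi44 genes are induced by interferon, and an antiviral role is described for IFI44 in mammalian cells. In the 1-year groups ifi44a1 was at 2.86, 0.432, 1.24, 0.769 and 3.74 CPM without and 0.689, 0.803, 0.742, 0.344 and 0.731 CPM with exercise. At 3 years ifi44a1 was at 1.56, 29.7, 4.09, 3.70 and 1.72 CPM without and 30.9, 6.40, 3.79, 8.63 and 19.6 CPM with exercise. The lowest exercised 3-year library was above the highest exercised 1-year library, and the same 3 libraries as for mxc were highest. It rose by 4.38 ± 0.89 (log2, SE; adjusted p = 0.00755) in exercised fish, a fold of 20.9, and by 3.28 ± 0.59 (log2, SE; adjusted p = 0.0017) averaged over exercise. For ifi44a6 the 1-year values were 1.396, 0, 0.574, 0.183 and 0.674 CPM without and 0.0657, 0.0446, 0.193, 0.103 and 0.0996 CPM with exercise. At 3 years ifi44a6 was at 0.332, 33.4, 0.340, 0.359 and 0.306 CPM without and 40.7, 1.41, 0.653, 7.06 and 26.5 CPM with exercise, so that without exercise replicate 2 alone was above the 1-year range. Its 1-year exercised libraries held 1 to 6 counts, so the size of its fitted increase with exercise, 7.14 ± 1.75 (log2, SE; adjusted p = 0.0168), rests on few counts. Its neighbour ifi44a8 was at 1.29, 0.144, 0.319, 0.220 and 0.236 CPM without and 0.0328, 0.0892, 0.161, 0.103 and 0.166 CPM with exercise at 1 year. At 3 years ifi44a8 was at 0.398, 9.82, 0.908, 0.323 and 0.306 CPM without and 9.53, 0.451, 0.131, 1.04 and 7.52 CPM with exercise. Again 3-year unexercised replicate 2 and exercised replicates 1 and 5 were far above the rest, and the ages overlapped in both conditions. The averaged increase was 3.71 ± 0.86 (log2, SE; adjusted p = 0.00735), with 1 to 5 counts in the 1-year exercised libraries. Like ifi44a6, ifi44a8 reached 10 counts mainly at 3 years, in 7 libraries against 2 at 1 year. Without 3-year unexercised replicate 2 the averaged increases were smaller but still called, at 2.57 for ifi44a8, 3.19 for ifi44a6, 2.49 for ifi44a1 and 2.57 for mxc.

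From another part of the family, ifi44f3 had a less uneven pattern. It was at 3.27, 1.55, 2.14, 2.31 and 2.02 CPM without and 1.28, 1.92, 1.68, 1.89 and 2.49 CPM with exercise at 1 year. At 3 years ifi44f3 was at 2.42, 15.3, 6.13, 5.68 and 2.75 CPM without and 12.2, 4.42, 3.27, 6.29 and 7.98 CPM with exercise. The exercised groups did not overlap, and 2 unexercised 3-year libraries (replicates 1 and 5) lay within the 1-year range. It rose by 1.70 ± 0.31 (log2, SE; adjusted p = 0.00179) averaged over exercise. The remaining ifi44 genes, ifi44a3, ifi44b, ifi44c1, ifi44c2, ifi44f1 and ifi44f4, were not called by edgeR in any comparison with all libraries. Their averaged log2 fold changes lay between -0.12 ± 0.27 (ifi44f1) and 1.84 ± 0.87 (ifi44b). In RefSeq's gene order, the ifi44a genes lie side by side, as do the ifi44f genes, ifi44c1 and ifi44c2, ifit12 to ifit9, ifit16 to ifit14, mxa and mxb, mxc and mxe, and pkz and eif2ak2, with at most 1 other gene between neighbours. No source used here says how reads that fit several of these similar copies were counted, so the split of counts among them is uncertain.

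**Figure D3:**
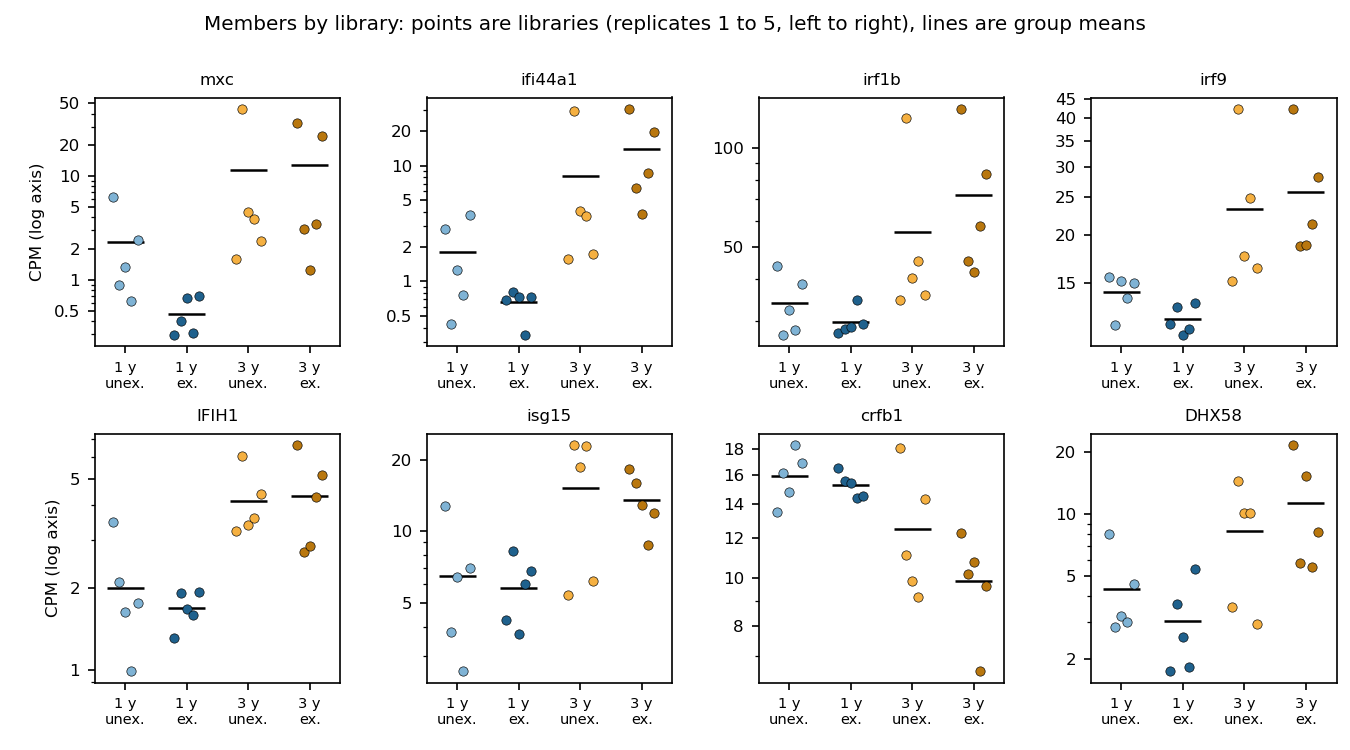
CPM on a log axis for 8 of the genes, with 1 point per library, in the 4 groups (y, years; unex., unexercised; ex., exercised), and a line at each group mean. In mxc, ifi44a1, irf1b and irf9 a few 3-year libraries stand above the rest, while IFIH1 is higher in all 3-year libraries than in 9 of the 10 at 1 year and crfb1 is lower in most of them.

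The other effectors differed in strength. The protein isg15 is a ubiquitin-like tag that is attached to other proteins. In 1-year fish isg15 was at 12.8, 3.78, 6.48, 2.60 and 7.01 CPM without and 4.27, 8.30, 3.74, 6.03 and 6.81 CPM with exercise. At 3 years isg15 was at 5.44, 23.05, 18.7, 22.8 and 6.23 CPM without and 18.3, 15.9, 12.9, 8.78 and 11.9 CPM with exercise. Replicates 2, 3 and 4 of the 3-year unexercised group were high, and replicates 1 and 5 were within the 1-year range. With exercise, every 3-year library lay above every 1-year library. Averaged over exercise, isg15 rose by 1.22 ± 0.31 (log2, SE; adjusted p = 0.0113). With all 4 groups in the fit, edgeR did not call isg15 within either exercise condition. For age with exercise, isg15 was called by DESeq2, which called 14.7% of all genes. It was also called there by edgeR on those 2 groups alone (11.2% of all genes). The E3 ligase trim25, which activates an RNA sensor in mammals, had a small difference. It was at 69.9, 69.5, 61.3, 70.0 and 61.8 CPM without and 61.7, 59.3, 65.1, 63.8 and 81.1 CPM with exercise at 1 year. At 3 years trim25 was at 65.8, 106, 80.3, 97.1 and 72.7 CPM without and 81.4, 80.7, 76.9, 96.1 and 92.1 CPM with exercise. The groups overlapped in both conditions. The averaged increase was 0.36 ± 0.08 (log2, SE; adjusted p = 0.00704), a fold of 1.28. The kinase pkz, a fish relative of the RNA-activated kinase PKR that binds Z-form nucleic acid, rose by 0.97 ± 0.28 (log2, SE; adjusted p = 0.0249) averaged over exercise. Its neighbour eif2ak2, which encodes PKR itself, had 0.30 ± 0.19 (adjusted p = 0.303). RSAD2, which encodes viperin, had 0.31 ± 0.15 (adjusted p = 0.184).

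Of the ifit genes, whose products bind viral RNA in mammals, ifit9 and ifit12 rose. The gene ifit9 was at 0.131, 0.0892, 0.0322, 0 and 0.0996 CPM in 1-year exercised fish and at 2.28, 0.366, 0.457, 0.237 and 0.322 CPM in 3-year exercised fish, with replicate 1 far above the others. It had 10 counts or more in 1 library at 1 year and 6 at 3 years, so it was kept mainly through the age at which it is higher. At 1 year its exercised libraries held 0 to 4 counts, and the fitted increase was 3.29 ± 0.86 (log2, SE; adjusted p = 0.0225). Without 3-year exercised replicate 1 the increase was 2.24, with an adjusted p of 0.1002. The unexercised libraries of ifit9, at 0.374, 0, 0.160, 0.220 and 0.202 CPM at 1 year and 0.0995, 0.478, 0.567, 0.323 and 0.0764 CPM at 3 years, overlapped. The increase of ifit12 in exercised fish was 1.66 ± 0.48 (log2, SE; adjusted p = 0.0326), and 0.113 was its adjusted p without the same library. The genes ifit8, ifit10, ifit11 and ifit16 were not called, and of these ifit16 came nearest, with 0.74 ± 0.25 averaged over exercise (adjusted p = 0.0513). IFITM5 fell. In mammals it is known from bone cells rather than as an interferon target, and it was included by its symbol's prefix. It was at 1.15, 1.96, 1.97, 2.31 and 1.13 CPM in 1-year exercised fish and at 0.478, 0.451, 0.359, 0.297 and 0.409 CPM in 3-year exercised fish. These did not overlap, and the change was -2.08 ± 0.56 (log2, SE; adjusted p = 0.024). Its averaged decrease of -1.15 ± 0.38 (log2, SE; adjusted p = 0.0462) was called in 3 of 20 fits that left out 1 library. Without exercise it was at 1.12, 1.84, 0.287, 0.659 and 1.18 CPM at 1 year and 0.299, 0.255, 2.31, 1.15 and 0.382 CPM at 3 years, which overlap, with the highest value in 3-year replicate 3. Its related gene ifitm1, whose mammalian counterpart blocks virus entry, was not called in any comparison.

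Both inhibitors rose on average over exercise, where 9.65% of all genes were called higher. SOCS1, which blocks JAK kinases, was at 8.89, 1.84, 2.23, 3.30 and 2.46 CPM without and 1.61, 2.28, 1.71, 1.62 and 1.99 CPM with exercise at 1 year. At 3 years SOCS1 was at 1.99, 17.9, 13.8, 5.50 and 3.52 CPM without and 19.0, 2.28, 6.76, 6.38 and 12.6 CPM with exercise. The exercised ages did not overlap, although 3-year replicate 2 was only just above the highest 1-year library. The averaged increase was 1.77 ± 0.42 (log2, SE; adjusted p = 0.00856), and with exercise it was 2.35 ± 0.61 (log2, SE; adjusted p = 0.022). The enzyme usp18, which removes isg15 and also binds the interferon receptor, rose by 1.23 ± 0.34 (log2, SE; adjusted p = 0.0199) averaged over exercise.

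Exercise changed none of the 42 genes past the threshold at either age. At 1 year 0 of 42 were called by edgeR, against 0.0189% of all genes, 0 by DESeq2, which called 1.33% of all genes, and 0 by limma. There, 37 of the 42 were lower in exercised fish, with a median log2 fold change of -0.45 against -0.02 over all genes, and 6 had an unadjusted p below 0.05 (14.3%, against 11.5% of all genes). Without 1-year unexercised replicate 1 that median was -0.12. The microglial and T and NK cell markers listed further on were also lower, in 13 of 13 and 9 of 9, with medians of -0.72 and -0.46, and 0 were called. So were 7 of 8 epidermis, 7 of 10 muscle, 4 of 5 B cell and 5 of 5 neutrophil markers. Their medians were -1.64, -1.425, -0.99 and -0.75, and 0 were called. Neuronal markers were higher in 8 of 10 and endothelial markers in 4 of 6. In 1-year unexercised replicate 1 the microglial sum was 1079 CPM and the muscle sum 4397 CPM, with group medians of 556 and 35.7. The markers are not given without that library. Retina markers stood out in 3 exercised libraries, with a sum over 12 genes of 199 CPM in 1-year replicate 3 and of 135 and 190.1 CPM in 3-year replicates 2 and 4, against at most 7.53 CPM in the other 17. Their part in the exercise values was not tested. The smallest p was that of ifit11, at 4.32, 2.31, 2.68, 1.54 and 1.62 CPM without and 1.02, 1.03, 1.26, 1.14 and 1.195 CPM with exercise. Its libraries did not overlap, as in 1 of the 42 genes against 1.89% of all genes, and the change was -1.14 ± 0.32 (adjusted p = 0.203). For ifitm1, the values were 41.4, 1.98, 3.06, 2.34 and 3.17 CPM without and 2.20, 4.55, 4.45, 1.82 and 2.16 CPM with exercise, so replicate 1 alone set the unexercised mean. The change in ifitm1 of -1.78 ± 0.77 (adjusted p = 0.396) became 0.21 without that library.

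At 3 years exercise gave 0 calls in edgeR, against 0.0284% of all genes, 0 in DESeq2, against 0.474%, and 0 in limma. None of the 42 had an unadjusted p below 0.05, where 8.07% of all genes did, and none had groups that did not overlap, against 1.74%. The median log2 fold change was 0.04, against 0.00 over all genes, and -0.27 without 3-year exercised replicate 1. The smallest p values were those of IFITM5 at -1.13 ± 0.55 (adjusted p = 0.642), crfb1 at -0.34 ± 0.17 (adjusted p = 0.652) and ifit9 at 1.22 ± 0.74 (adjusted p = 0.758). Each rested largely on 1 library. IFITM5 was at -0.38 without 3-year unexercised replicate 3, crfb1 at -0.17 without 3-year unexercised replicate 1, and ifit9 at 0.15 without 3-year exercised replicate 1. With the ages averaged, edgeR called 0 of 42, against 0.908% of all genes, DESeq2 0, against 3.26%, and limma 0. The median was -0.19, against -0.02 over all genes, with 36 of 42 lower in exercised fish and 3 at an unadjusted p below 0.05 (7.14%, against 13.8% of all genes). The median moved to -0.05 without 1-year unexercised replicate 1, with 18 of 42 higher in exercised fish, to -0.07 without 3-year unexercised replicate 2, also with 18 higher, and to -0.38 without 3-year exercised replicate 1. The 3 genes were ifit11 at -0.58 ± 0.23 (adjusted p = 0.258), ifi44a3 at -1.28 ± 0.56 (adjusted p = 0.319) and STING1 at -0.72 ± 0.34 (adjusted p = 0.36). STING1 was at 1.16, 0.577, 0.606, 0.366 and 0.674 CPM without and 0.263, 0.0892, 0.613, 0.516 and 0.398 CPM with exercise at 1 year. At 3 years STING1 was at 1.09, 1.02, 1.06, 0.395 and 0.344 CPM without and 1.03, 0.423, 0.196, 0.386 and 0.526 CPM with exercise. Its groups overlapped at both ages. For ifi44a3 the values were 1.29, 0.360, 0.766, 0.476 and 0.202 CPM without and 0.394, 0.178, 0.290, 0.275 and 0.0996 CPM with exercise at 1 year, and 0.265, 1.08, 4.27, 0.108 and 0.344 CPM without and 1.07, 0.169, 0.294, 0.386 and 0.643 CPM with exercise at 3 years. The 3-year unexercised mean of ifi44a3 rested mostly on replicate 3, and without it the change was -0.57.

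**Figure D4:**
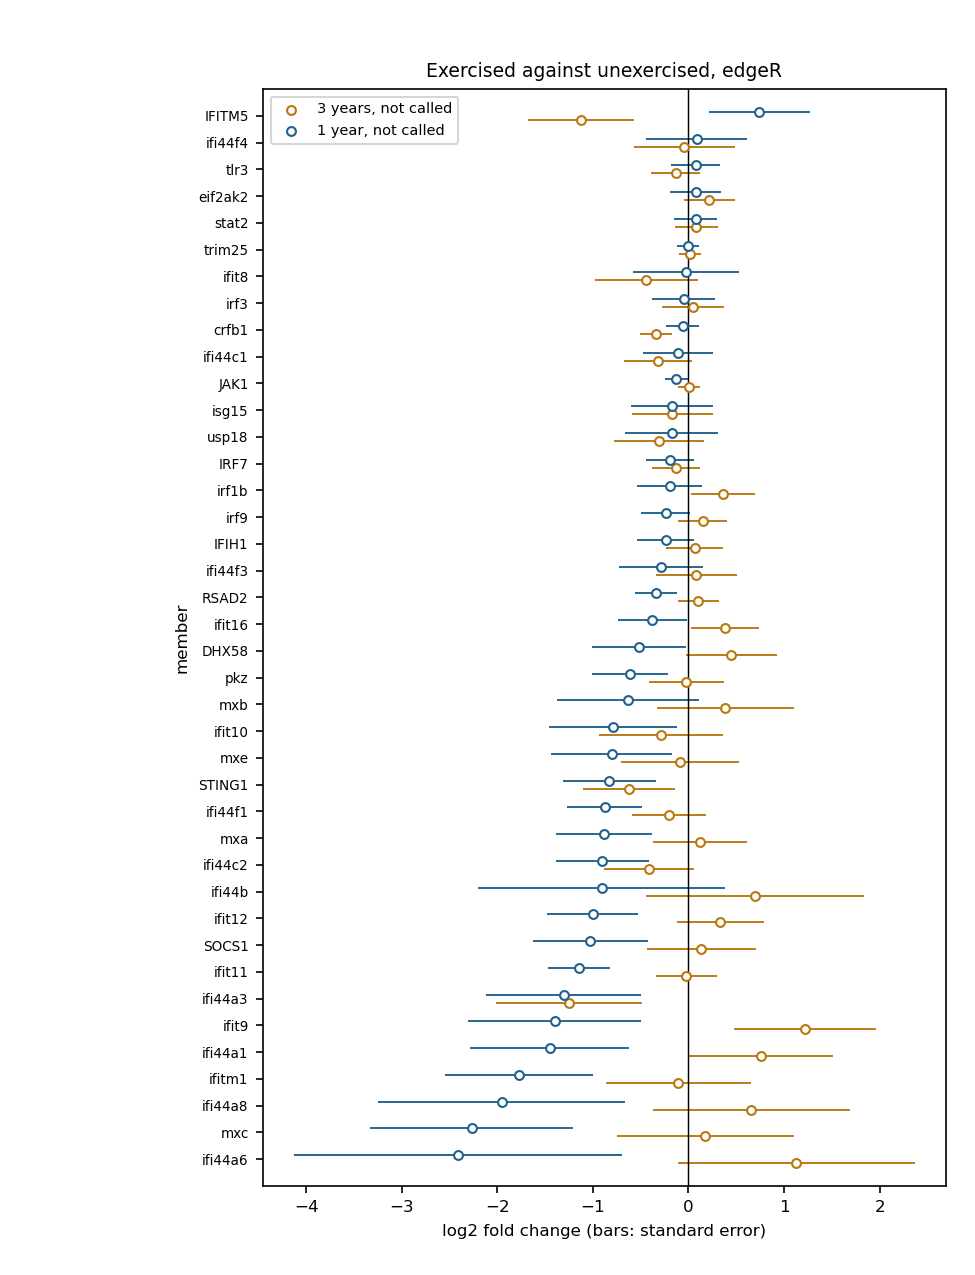
Log2 fold change of exercised against unexercised fish (x axis) for 40 of the genes (y axis), blue at 1 year and brown at 3 years, with standard errors as bars. No point is filled, because none passed an adjusted p of 0.05; 35 of 40 blue points lie left of 0, while 22 of 40 brown points lie right of it.

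The exercise effect at 3 years minus that at 1 year, which is the same quantity as the age effect with exercise minus that without, was positive in 35 of 42 genes. Its median was 0.47, against 0.01 over all genes. No gene of the 42 was called by edgeR, against 0.00473% of all genes, none by DESeq2, against 0.0473%, and none by limma, and 3 had an unadjusted p below 0.05 (7.14%, against 4.75% of all genes). Those 3 were ifit11 at 1.12 ± 0.45 (adjusted p = 0.982), IFITM5 at -1.87 ± 0.76 (adjusted p = 0.982) and ifit9 at 2.62 ± 1.17 (adjusted p = 0.982). The median rested on few libraries: leaving out 1-year unexercised replicate 1 gave 0.01, leaving out 3-year exercised replicate 1 gave 0.19, and leaving out both gave -0.06. Those 2 libraries were the highest of their groups in 32 and 34 of the 42 genes. Both groups enter the difference with a plus sign, so leaving these libraries out lowers it. Without 3-year unexercised replicate 2, whose group enters with a minus sign, the median was 0.69. For ifi44a1 the difference was 2.21 ± 1.12 (adjusted p = 0.982).

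Other genes of the interferon pathway were listed by name too. Of 68 such genes tested, 31 rose and 3 fell with age in exercised fish, and 35 rose and 3 fell on average over exercise, against the shares of all genes given above. The 34 called in exercised fish became 17 without 3-year exercised replicate 1 (4.22% of all genes). They became 23 without that library and 1-year unexercised replicate 1 (6.09%), and the 38 on average became 37 without both (16.6%). For age without exercise edgeR called 0 of the 68, with 22 at an unadjusted p below 0.05 (32.4%, against 14.1% of all genes). There DESeq2 called 6, against 2.6% of all genes, and limma 0. Without both libraries edgeR called 5, against 1.74% of all genes. In each exercise comparison and their difference edgeR called 0, with 5 to 11 at an unadjusted p below 0.05. That is 7.35% to 16.2% of the list, against 4.75% to 13.8% of all genes. DESeq2 called 1 at 1 year, 1 at 3 years, 1 on average and 0 for the difference, where it called 1.33%, 0.474%, 3.26% and 0.0473% of all genes. In these comparisons limma called 0. In exercised fish the genes that rose included the interferon gene ifnphi1 (1.85 ± 0.52), the transcription factors IRF8 (2.05 ± 0.38) and IRF4 (2.74 ± 0.51), and the guanylate-binding gene gbp3 (1.83 ± 0.27). The list's b2m (1.77 ± 0.39), the light chain of MHC class I, tap2a (2.75 ± 0.63), a peptide transporter, PSMB8 (2.11 ± 0.56), a proteasome subunit, and nlrc5 (1.86 ± 0.36), a regulator of MHC class I genes, rose as well. Another Mx gene, mxf, rose by 5.02 ± 1.35. The receptor-family gene crfb16 (-1.44 ± 0.40), the kinase JAK2 (-0.22 ± 0.06) and tdrd7a (-0.92 ± 0.28) fell. IRF8 and IRF4 are also markers of macrophages and lymphocytes.

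Most tested markers of microglia and of T and NK cells were also higher at 3 years. Of 13 tested markers of microglia and macrophages, 9 were called higher at 3 years in exercised fish, and of 9 tested markers of T and NK cells 6 were, against 6.77% of all genes. For age without exercise edgeR called 0 of either list, with 3 of 13 and 5 of 9 at an unadjusted p below 0.05, against 14.1% of all genes. The sum of the microglial markers had a median of 535 CPM (514 to 585) in 1-year exercised fish and of 671 CPM (610 to 976) in 3-year exercised fish. Without exercise it was 556 CPM (396 to 1079) at 1 year and 749 CPM (506 to 896) at 3 years. Most of this sum came from apoeb and AIF1L, with means of 364 and 142 CPM, which were not called with age. The sum of all 10 T and NK markers was 102 to 133 CPM in 1-year and 111 to 153 CPM in 3-year exercised fish, and 111 to 148 and 94.5 to 252 CPM without exercise. GATA3 alone gave 42.3 to 139 CPM of it. It was the 1 of the 9 tested markers that was lower at 3 years, with a log2 fold change of -0.35 in exercised fish, not called. The same sum without GATA3, which neurons also express and which was left out after its values were seen, had a median of 9.06 CPM (5.92 to 10.6) in 1-year exercised fish and of 51.1 CPM (17.3 to 92.7) in 3-year exercised fish. Without exercise it was 9.64 CPM (7.40 to 29.8) at 1 year and 23.1 CPM (12.1 to 157) at 3 years. The 3 libraries highest in mxc, 3-year unexercised replicate 2 and 3-year exercised replicates 1 and 5, had the highest 3 values of that sum, 157, 92.7 and 54.7 CPM. Close behind was 3-year exercised replicate 4, at 51.1 CPM, with mxc at only 3.44 CPM. With GATA3 included, the 3 libraries highest in mxc were at 252, 135 and 153 CPM and were no longer the highest 3. There 3-year unexercised replicate 5, at 156 CPM, and 1-year unexercised replicates 1 and 3, at 145 and 148 CPM, lay above 3-year exercised replicate 1. Over all libraries cd8a, which marks cytotoxic T cells, ranged from 0.103 to 20.1 CPM. The 3 libraries highest in mxc were at 20.1, 7.76 and 5.41 CPM for cd8a. It is 1 of the 10 markers, and the others but GATA3 are given only as a sum. The microglial sum in the same libraries was 790, 976 and 610 CPM, the last being the lowest of its group. The highest microglial sum of all libraries, 1079 CPM, was that of 1-year unexercised replicate 1. No marker of either list was at 0 in any library. The part of these cells in the interferon differences was not tested, and in bulk tissue more cells of a type and more RNA per cell cannot be told apart. Of 5 tested B cell markers 2 were called higher with age in exercised fish, against 6.77% of all genes. Of 5 neutrophil markers 1 was called higher, and of 10 muscle markers 1, the last near that share. Of the 10 muscle markers 9 were positive, with a median of 1.45. Of 10 neuronal markers 2 were called lower, against 3.88% of all genes. All 10 were negative, with a median of -0.24, against 0.01 over all genes.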

How the data were processed

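RNA-seq of 20 brain samples was analysed from 2 deposited tables, read counts per Ensembl gene and RPKM. The kit named in the labels' protocols, TruSeq RNA v2, keeps no strand information. Per the submitters' processing notes, the tools were featureCounts 1.4.6-p4, STAR 2.4.1d and bcl2fastq 1.8.4, with the build GRCz10, given without roles or settings. The deposited counts summed to 23390453 to 34587938 per library. The deposited RPKM values came out as if the library totals had been used in turn down the rows: gene lengths recovered from them had a median coefficient of variation of 13.8% with each library's own total and of 0.00217% with totals in turn. RPKM was therefore recomputed from the counts and these lengths.

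Counts were tested with edgeR 4.0.16 (R 4.3.3; genes filtered with a minimum count of 10, TMM scaling, 4 group means, robust quasi-likelihood F-test, Benjamini-Hochberg adjustment). DESeq2 1.42.0 and limma 3.58.1 were alternatives. CPM used TMM-scaled totals. An SE is the log2 fold change divided by the square root of its F. Genes whose 20 values are given were the 12 of smallest p, the 3 of smallest p in comparisons with few calls, and the most abundant of a role; others were named from their calls. The genes, pathway list and markers were chosen with earlier results of these data known. Symbols came from a table matched to 26269 gene identifiers, and gene order from RefSeq (GRCz12tu). The test was tried on simulated data with the same spread for every gene and no outlying libraries, which says little about genes as uneven as these. Sequences were not used here, and withheld items, which the counts over all 42 genes include, are not reported here by name.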

Additional observations from a re-analysis of the deposited data

Results flagged for a closer look

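In 10 of 160 groups of 5 libraries, 1 library lay far from the other 4, with a gap to its nearest neighbour above 0.71 of the group's range on the log2 CPM scale (Dixon's test). Chance flags about 1 in 20 groups, and 6.25% were flagged here.

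In 3-year exercised replicate 1, JAK1 was at 98.99 CPM (others 64.6 to 68.8), ifit9 at 2.28 CPM (others 0.237 to 0.457) and ifit16 at 4.42 CPM (others 1.48 to 2.03). In 3-year unexercised replicate 2, irf1b was at 122.6 CPM (others 34.6 to 45.4), ifi44a6 at 33.4 CPM (others 0.306 to 0.359) and ifit12 at 1.47 CPM (others 0.697 to 0.841). In 3-year unexercised replicate 3, ifi44c1 was at 0.719 CPM (others 0.431 to 0.498).

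At 1 year, ifitm1 was at 41.4 CPM in unexercised replicate 1 (others 1.98 to 3.17). In exercised replicate 4, irf1b was at 34.7 CPM (others 27.5 to 29.2), and ifi44a1 was low, at 0.344 CPM (others 0.689 to 0.803).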

How the results depend on the processing

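Of 1402 values of single genes under another setting, 1260 kept their direction and side of the threshold, 136 fell below it, 4 passed it and 2 reversed. Both reversals were ifitm1 for exercise at 1 year, at 0.21 without 1-year unexercised replicate 1 (-2.04 to 0.21 with any 1 library left out) and 0.21 without that library and 3-year exercised replicate 1. Without those 2 libraries, the median difference between the exercise effects became -0.0638. Then 8 genes were called for age with exercise, against 6.09% of all genes, and 1 (IFIH1) for age without exercise, against 1.74%. DESeq2 called 2 for age without exercise. With 1 library left out, the median difference between the exercise effects ranged from 0.00928 to 0.69. Calls ranged from 0 to 1 for age without exercise, against 0.355% to 1.22% of all genes. They ranged from 6 to 19 for age with exercise, against 4.22% to 12.4%. The cause was not tested. Among all genes, DESeq2 called 3405 against edgeR's 2252 for age with exercise, 549 against 124 for age without exercise, 687 against 192 for exercise averaged over ages, 274 against 4 and 115 against 6 for exercise at 1 and 3 years, and 13 against 1 for the difference. Age with exercise gave 899 without 3-year exercised replicate 1 and 1292 without both libraries, and age without exercise gave 46 with its 2 groups alone. No paired analysis was possible because the labels give no replicate numbers and these were given in accession order. Genes with few counts in a group, such as ifi44a6, ifi44a8 and ifit9, have fitted sizes that depth limits.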
